A study of Mus musculus with 5 samples.

Results

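The genes of the AP-1 transcription factors and the related factor Atf3 were examined in 4T1 cancer cells growing in mouse lung. They are 8 of the 23771 genes in the deposited table: Fos, Fosb, Fosl1, Fosl2, Jun, Junb, Jund and Atf3. They were chosen by name as a family, with their mean levels in these same cells already known, so their values here are a description and no test of them was made. All 8 had a UMI (a unique molecular identifier, which counts 1 captured RNA molecule) in cancer cells of both libraries, and none of the 8 was found in under 10% of the cells of either library.

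AP-1 is a dimer of basic leucine zipper proteins, built from a Jun protein paired with another Jun or with a Fos protein. Fos, Jun, Junb and Fosb are immediate-early genes, whose transcription starts within minutes of a growth factor, cytokine or stress signal through MAP kinases and without new protein synthesis. Fosl1 (also called Fra-1) and Fosl2 (Fra-2) respond more slowly, and Fosl1 is known in breast carcinoma for its part in invasion. Jund is expressed more evenly across conditions. Atf3 pairs with Jun proteins, is induced by many kinds of cell stress, and can repress transcription.

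The series holds 5 single-cell RNA libraries of lungs of female BALB/c mice in 4 groups. From 6 weeks of age the mice were given intravenous medium 3 times a week for 3 weeks, which either had held pieces of mammary tumors and so contained tumor-secreted factors (TSF) or had been incubated alone as control medium (CM). These tumors had been grown from 4T1, a mammary carcinoma line of BALB/c mice. The mice of every group then received 25000 4T1 cells carrying the CD90.1 reporter into a vein, and the lungs were collected on day 11 or on day 16. Gene levels are given here for the cancer cells of day 16, when the mice were 11 weeks old. These cells come from 1 CM library (29 cancer cells) and 1 TSF library (139 cancer cells), and each library pooled the lungs of 3 mice. A pool is 1 sample, so no difference between CM and TSF has a replicate check, and the mice behind a cell are not known. The lungs of every group were minced and digested with Liberase at 37 °C for 45 min before the cells were put on ice, and warm digestion is known to induce immediate-early genes.

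The median depth per cancer cell was 27679 UMIs in the CM library (quartiles 9821 and 36012) and 26615 UMIs in the TSF library (quartiles 20099 and 36867). Cells under 10000 UMIs made up 8 of 29 CM cells (27.6%, exact 95% interval 12.7 to 47.2%) and 14 of 139 TSF cells (10.1%, interval 5.62 to 16.3%). Levels are means over cells of CP10k, the UMIs of a gene per 10000 UMIs of the cell, so every cell weighs the same. A single UMI was worth 0.361 CP10k in a CM cell of median depth and 10.3 CP10k in the shallowest CM cell, where it adds 0.354 CP10k to the mean of the library. The median share of mitochondrial UMIs was 1.72% in CM and 1.99% in TSF. No barcode was shared by the cancer cells of the 2 libraries. How far the shallow CM cells enter the means below was not tested.

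The study named a cluster as cancer cells from the CD90.1 reporter. Of 8 markers of carcinoma cells, only some were seen in nearly every cell. The keratin genes Krt8 and Krt18 were seen in 29 and 28 of 29 CM cells and in 137 and 138 of 139 TSF cells. Epcam, an epithelial surface protein, was seen in 8 of 29 CM cells (27.6%, interval 12.7 to 47.2%) and 95 of 139 TSF cells (68.3%, interval 59.9 to 76.0%). The CD90.1 reporter was seen in 2 CM cells (6.90%, interval 0.846 to 22.8%) and 48 TSF cells (34.5%, interval 26.7 to 43.1%). The CM and TSF cells thus differed in Epcam and in the reporter, and the part of this in the results below was not tested. Of 12 leukocyte markers, 10 were at 0 in the 29 CM cells, Ptprc, Lyz2, S100a8 and Tyrobp among them, and 2 were at 0 in the 139 TSF cells. Of the 10 markers detected in either library, 8 had a higher mean in TSF and 2 a lower one. S100a9, at 0 in CM, had 0.685 CP10k in TSF, with a UMI in 4 of 139 cells. The summed level of the list was 21.5 CP10k in CM and 5.39 in TSF, most of it Cd74, the invariant chain of MHC class II, which carcinoma cells also make. Of 12 markers of endothelial, stromal and lung epithelial cells, 7 were at 0 in CM and 3 in TSF, with summed levels of 0.669 and 1.28 CP10k. The stromal marker Pdgfra was an exception, seen in 13 of 29 CM cells (44.8%) and 63 of 139 TSF cells (45.3%). Its means were 0.407 CP10k in CM, most of the sum there, and 0.426 in TSF. Dcn, another stromal marker, was seen in 2 CM cells (6.90%) and 16 TSF cells (11.5%).

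Differences are given as the log2 ratio of mean CP10k, TSF over CM, after adding a pseudocount of 1 CP10k to both, which understates the ratio of low genes. A gene is called lower or higher here where this ratio reached 2-fold, a rule of size and not a test. In the TSF cells 4 of the 8 genes were called lower: Atf3, Fosl1, Jun and Junb. None was called higher. A gene under 1 CP10k in CM cannot be called lower on this scale even at 0 in TSF, which holds for Fosb and Fosl2, and neither was 2-fold lower with a pseudocount of 0.1 CP10k. Among all 14735 genes with a UMI in a cancer cell, 55 were called lower (0.373%) and 13 higher (0.0882%), but most of those genes are too low to pass. Among the 1527 genes with a mean of at least 1 CP10k over the 2 libraries, 3.47% were called lower and 0.786% higher. That pool holds 6 of the 8 genes, all but Fosb and Fosl2. The median log2 ratio was -0.72 for the 8 genes, 0.0011 for all detected genes and -0.05 for genes with a mean of at least 1 CP10k. Because the genes were picked with these values known, the counts say nothing about how unusual such a family is.

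**Figure D1:**
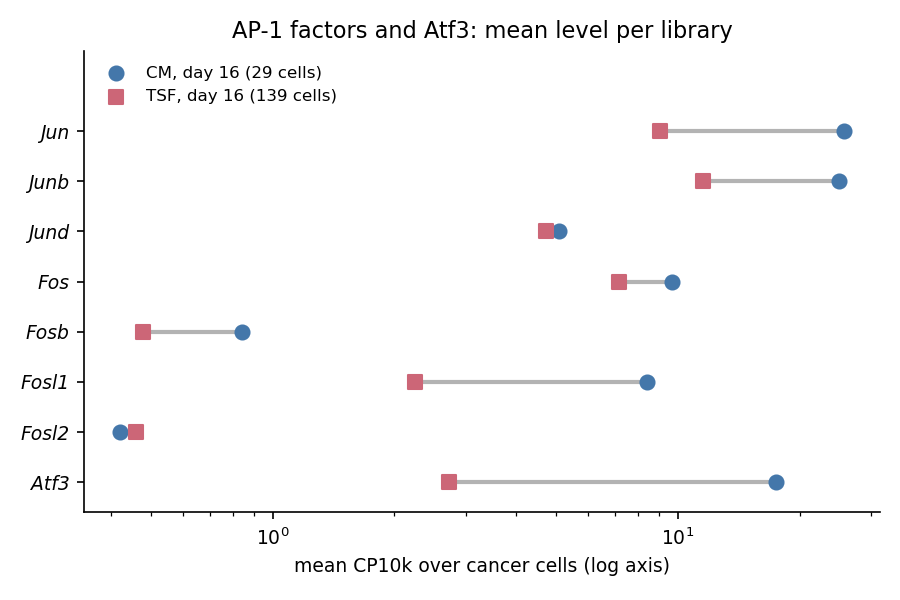
Mean level of each gene over the cancer cells of the CM library (blue circles) and the TSF library (red squares) at day 16, in CP10k on a log axis, with 1 library per group and so no error bar. The gap is widest for Atf3 (17.5 in CM and 2.73 in TSF), while the points of Jund and Fosl2 nearly meet.

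The 7 genes with a promoter in the RefSeq table (GRCm38.p6, from 250 bases before the annotated start to 50 after it; Fosl1 is not among them) were searched on both strands for motifs that bind the regulators of AP-1 genes. The windows with a match before the start are shown for the 100 bases up to the start, with the matched letters in capitals.
Fos, chr12:85473790-85473889, plus strand: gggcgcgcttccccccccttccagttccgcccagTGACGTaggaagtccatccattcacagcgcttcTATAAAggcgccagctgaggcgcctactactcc
Jun, chr4:95052223-95052322, minus strand: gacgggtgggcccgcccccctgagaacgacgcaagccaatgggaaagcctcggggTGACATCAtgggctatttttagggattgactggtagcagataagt
Atf3, chr1:191183334-191183433, minus strand: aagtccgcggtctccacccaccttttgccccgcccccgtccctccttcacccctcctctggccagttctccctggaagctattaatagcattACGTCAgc

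The capitals in Fos are the core of the cAMP response element, TGACGT, and a TATA box, TATAAA. Atf3 carries the core on the other strand, at 3 to 8 bases before the start. In Jun the capitals are TGACATCA, the AP-1-like element through which Jun dimers bind the gene's own promoter. The core was found in 2 of these 7 windows and in 7.51% of all 32851 promoters of the same length. TATAAA was found in 2 (Fos, and Junb at the RefSeq start itself) and 13.6%, and TGACATCA in 1 and 3.62%. The full element TGACGTCA, which contains the core, the AP-1 site TGANTCA and the CArG box of serum response factor had no match in the 7 windows, and were found in 1.79%, 7.81% and 1.63% of all promoters. Regulatory elements farther upstream lie outside these windows, and the RefSeq start of Jund is 1210 bases from that of its GENCODE transcript. For Fosl2 the 2 starts are 671 bases apart. The GENCODE start of Junb lies 30 bases downstream of its RefSeq start, so the TATAAA of Junb lies before the GENCODE start. Jun and Atf3, with a match, and Junb, with only the TATA box, were called lower, while Fos, with a match, was not. The Atf3 window lies at a start inside the annotated span of the gene.

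Among the genes of the Jun proteins, the partners that every AP-1 dimer needs, Jun and Junb were called lower in TSF and Jund was not. Jun (ENSMUSG00000052684, GRCm38 chromosome 4, 95049034 to 95052222, minus strand) had a mean of 25.7 CP10k in the CM cells and 9.06 CP10k in the TSF cells, a log2 ratio of -1.41. It was seen in nearly every cell of both libraries, 27 of 29 in CM (93.1%, interval 77.2 to 99.2%) and 133 of 139 in TSF (95.7%, interval 90.8 to 98.4%). The libraries therefore differed in the mean level of Jun and not detectably in the share of cells that had any. Among cells with a UMI of Jun, the mean was 27.6 CP10k in CM and 9.47 in TSF.

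Junb (ENSMUSG00000052837, chromosome 8, 84974484 to 84978718, minus strand), often a weaker activator that can hold Jun in check, had 25.0 CP10k in CM and 11.6 CP10k in TSF, a log2 ratio of -1.05. Its shares of cells were close, at 27 of 29 (93.1%) and 134 of 139 (96.4%, interval 91.8 to 98.8%). Of the 4 genes called lower it lay nearest to the limit, and the next gene above it was Fos at -0.39. Its call was lost under other scalings of the libraries, with a log2 ratio of -0.97 when ribosomal protein genes were left out of the totals and -0.87 when the libraries were scaled to the median ratio of genes.

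Jund (ENSMUSG00000071076, chromosome 8, 70698949 to 70700616, plus strand) had 5.10 CP10k in CM and 4.73 in TSF. Its log2 ratio was -0.09, and it turned to 0.074 when the libraries were scaled to the median ratio of genes, so no direction is given for it. A UMI was found in 27 of 29 CM cells (93.1%) and 127 of 139 TSF cells (91.4%, interval 85.4 to 95.5%). Jun, Junb and Jund each have a single exon in the annotation, as do 2.76% of detected genes that have an annotated 3′ untranslated region.

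Among the genes of the Fos proteins, which bind DNA only when paired with a Jun protein, Fosl1 was called lower and Fos was not. Fosb and Fosl2 were too low in CM to be called lower on this scale. Fosl1 (ENSMUSG00000024912, chromosome 19, 5447547 to 5455946, plus strand) had 8.39 CP10k in CM and 2.24 CP10k in TSF, a log2 ratio of -1.53. It was seen in 26 of 29 CM cells (89.7%, interval 72.6 to 97.8%) and 104 of 139 TSF cells (74.8%, interval 66.8 to 81.8%). These intervals overlap. Cells with a UMI of Fosl1 had a mean of 9.35 CP10k in CM and 3.00 in TSF. The larger part of the ratio thus lay in the mean level of those cells.

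Fos (ENSMUSG00000021250, chromosome 12, 85473890 to 85477273, plus strand), the best known immediate-early gene of the family, had 9.69 CP10k in CM and 7.15 in TSF, a log2 ratio of -0.39. It was found in 25 of 29 CM cells (86.2%, interval 68.3 to 96.1%) and 106 of 139 TSF cells (76.3%, interval 68.3 to 83.1%). Both values were lower in TSF, but the ratio did not reach 2-fold under any scaling or pseudocount tried.

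Fosb (ENSMUSG00000003545, chromosome 7, 19302696 to 19310051, minus strand) had 0.841 CP10k in CM and 0.479 in TSF, a log2 ratio of -0.32, in 15 of 29 cells (51.7%, interval 32.5 to 70.6%) and 57 of 139 cells (41.0%, interval 32.7 to 49.7%). At these low levels the pseudocount mattered, and without it the log2 ratio was -0.81. Fosl2 (ENSMUSG00000029135, chromosome 5, 32135801 to 32157842, plus strand) was the only one of the 8 with a ratio above 0 on this scale. It had 0.421 CP10k in CM and 0.460 in TSF, a log2 ratio of 0.04, and a UMI in 14 of 29 cells (48.3%, interval 29.4 to 67.5%) and 70 of 139 cells (50.4%, interval 41.8 to 58.9%). For Fosb and Fosl2 a difference in the share of cells was not detectable with 29 CM cells.

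Atf3 (ENSMUSG00000026628, chromosome 1, 191170296 to 191218039, minus strand) had the lowest log2 ratio of all 14735 detected genes on the scale of CP10k + 1. Its mean was 17.5 CP10k in the CM cells and 2.73 CP10k in the TSF cells, a log2 ratio of -2.31. It was seen in 28 of 29 CM cells (96.6%, interval 82.2 to 99.9%) and 87 of 139 TSF cells (62.6%, interval 54.0 to 70.6%). Only 1 CM cell lacked a UMI of Atf3, against 52 TSF cells. Among the 8 genes Atf3 was the one whose intervals did not overlap, but the share of all genes with intervals apart was not counted. Outside the family the intervals were also apart for Egr1 (72.6 to 97.8% in CM and 54.7 to 71.3% in TSF). They were apart for Nr4a1 as well (64.2 to 94.2% and 33.4 to 50.4%), and overlapped for Ier2 (82.2 to 99.9% and 80.3 to 92.1%). The ranks depend on the pseudocount, which holds back genes of low level. From the lowest ratio, Atf3 ranked 1, Fosl1 17, Jun 20 and Junb 51 with a pseudocount of 1 CP10k, and 16, 68, 136 and 384 with 0.1 CP10k.

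**Figure D2:**
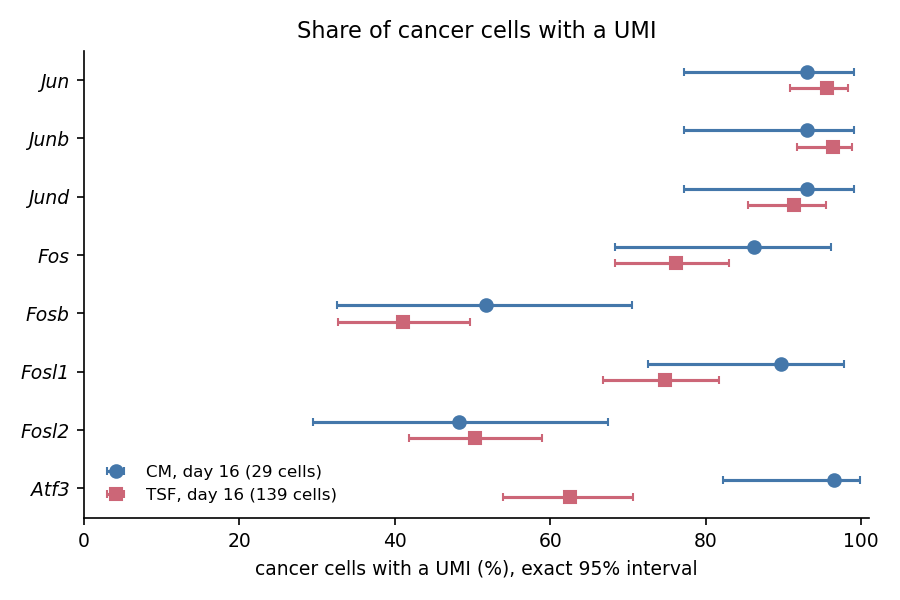
Percent of cancer cells with a UMI of each gene in the CM library (blue circles, 29 cells) and the TSF library (red squares, 139 cells) at day 16, with exact 95% intervals that cover counting error only. For Atf3 the intervals are apart (82.2 to 99.9% and 54.0 to 70.6%), and for the other 7 genes they overlap. Some genes outside the family, not drawn here, also had intervals apart, and their share over all genes was not counted.

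The ratio of means can be divided into the ratio of the shares of cells with a UMI and the ratio of levels in those cells, and on the log2 scale, without a pseudocount, these parts add up. For Atf3 the log2 ratio of -2.68 was made of -0.63 from the share and -2.05 from the level. The cells with a UMI of Atf3 thus also had a lower mean level of it in TSF, 4.36 CP10k against 18.1 in CM. For Jun the parts were 0.039 and -1.54, for Junb 0.050 and -1.16, and for Fosl1 -0.26 and -1.64. In all 4 genes called lower, the level part was at least 2-fold and the share part was not. For Fos (-0.18 and -0.26) and Fosb (-0.33 and -0.48) both parts were small and below 0. A share depends on depth and saturates near 100%, so a gene that nearly all cells hold cannot differ by its share. The cells were not thinned to equal depth.

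**Figure D3:**
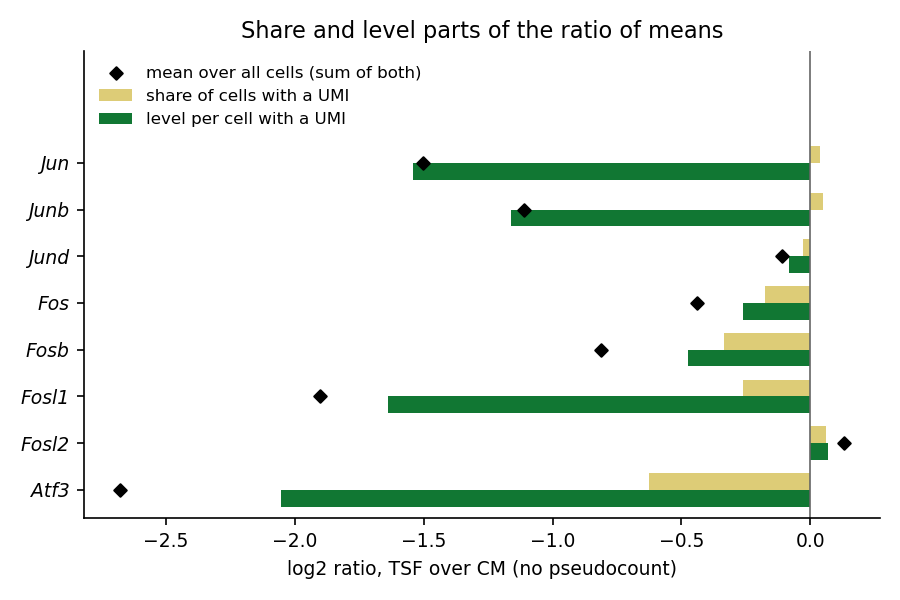
Log2 ratio, TSF over CM, of the mean CP10k over all cancer cells without a pseudocount (black diamonds), split into the part from the share of cells with a UMI (yellow bars) and the part from the level in cells with a UMI (green bars). The green bars pass -1 for Jun, Junb, Fosl1 and Atf3, whereas the lowest yellow bar, that of Atf3, is at -0.63.

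**Figure D4:**
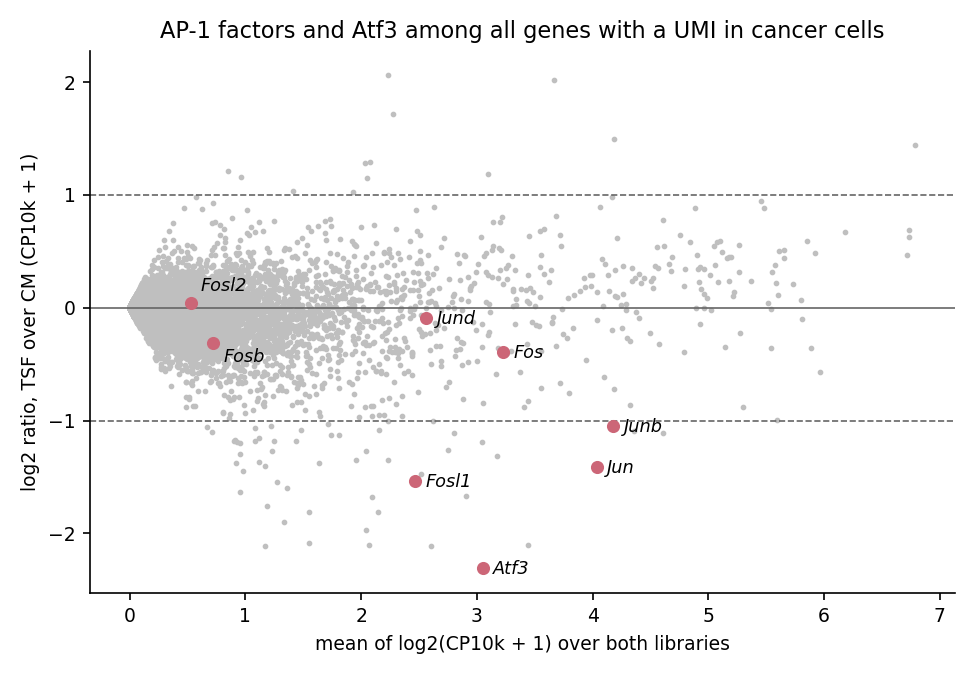
Log2 ratio of TSF over CM (CP10k + 1) against the mean of log2(CP10k + 1) over both libraries for the 14735 genes with a UMI in a cancer cell (grey), with AP-1 genes and Atf3 in red and dashed lines at 2-fold. Atf3 is the lowest point of all at -2.31, Fosl1, Jun and Junb lie below the lower line, and Fos, Fosb, Jund and Fosl2 lie between the lines.

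The genes whose pair of levels was most like that of Atf3 were Bst2, Cd74, Egr1, Ier2 and Hmga1, by distance of log2(CP10k + 1) over the 2 libraries. Bst2 (tetherin, an interferon-induced membrane protein) had 12.4 CP10k in CM and 3.20 in TSF, and Egr1, an immediate-early zinc finger factor, had 11.6 and 1.92 CP10k. With 2 libraries such a likeness says only that the levels were similar.

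Immediate-early RNAs are short-lived, in part through AU-rich elements of their 3′ untranslated regions, at which decay factors such as the Zfp36 proteins bind. The binding nonamer TTATTTATT was found once in Fos and once in Fosl2, in 1 annotated GENCODE M21 transcript per gene, and not in the other 6 genes. These sites are shown with the nonamer in capitals.
Fos, chr12:85477103-85477131, plus strand: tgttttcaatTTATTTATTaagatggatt
Fosl2, chr5:32156871-32156899, plus strand: atttattttaTTATTTATTttaaatgttt

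The shorter pentamer ATTTA was present in the 3′ untranslated region of all 8 genes, from 1 copy in Fosb, Fosl1 and Jund to 4 in Fos and Jun and 8 in Fosl2. Both genes with a nonamer were among the 4 not called lower, but Fosl2 was too low in CM to be called lower at all. Outside the family, the nonamer was found in 79 of 1485 genes with a mean of at least 1 CP10k. Of these, 5.06% (4 genes) were called lower, against 3.13% of the 1406 genes without it, and the medians were -0.13 and -0.05. This pool was chosen after the data were seen. Among all 12725 detected genes with an annotated untranslated region, the shares were 0.420% and 0.382% and the medians -0.0071 and -0.0032, so no difference by the nonamer was seen there. The first share in each pool rests on the same number of genes, 4, and untranslated regions with the nonamer were longer (median 2217 against 613 bases).

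Genes of the pathway around AP-1 were mostly low, and those under 1 CP10k in CM could not be called lower. Of 21 detected kinases and transcription factors upstream of AP-1 (such as Mapk8, Srf and Elk1), 0 were called in either direction, but only 4 could have been called lower. The median log2 ratio was -0.07 over the 21 genes and -0.24 over the 4 with a mean of at least 1 CP10k. With a pseudocount of 0.1 CP10k, 1 of the 21 was 2-fold lower, where 3.43% of all detected genes were. The list's lowest was Map2k3, a kinase that activates p38, with 1.58 CP10k in CM and 0.740 in TSF. Of 30 other basic leucine zipper factors, 0 were called, of which 6 could have been called lower, with a median of -0.21. With a pseudocount of 0.1 CP10k, 8 were 2-fold lower and 1 higher. Cebpd, a factor of acute inflammation, was the highest at 0.98, from 0.0584 CP10k in CM to 1.08 in TSF, and Atf4, the main factor of the integrated stress response, the lowest at -0.73. Of 17 phosphatases, Sprouty and decay factors that act back on this pathway, 1 was called lower, of 6 that could have been, and 0 higher, with a median of -0.17. With a pseudocount of 0.1 CP10k, 5 were 2-fold lower and 1 higher. The gene called lower was Zfp36, itself an immediate-early gene, with 9.22 CP10k in CM and 3.74 in TSF, followed by the dual-specificity phosphatases Dusp5 (1.53 and 0.313 CP10k) and Dusp6 (2.73 and 1.20 CP10k), whose log2 ratios with 1 CP10k added were -0.94 and -0.77.

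Genes known as targets of AP-1 lay on both sides of 0. Of 19 such genes 0 were called in either direction, 11 had a ratio below 0 and 8 above 0, and the median was -0.0091. Over the 9 with a mean of at least 1 CP10k the median was -0.72, and with a pseudocount of 0.1 CP10k, 4 of the 19 were 2-fold lower and 1 higher. Spp1, which encodes the secreted protein osteopontin, lay on the other side of 0 from Jun and Fosl1, with 30.6 CP10k in CM and 59.8 in TSF, a log2 ratio of 0.94. Areg, a growth factor of the EGF family, had 5.70 and 2.90 CP10k, a log2 ratio of -0.78. Plaur, the urokinase receptor, had 2.99 and 1.35 CP10k, a log2 ratio of -0.77.

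Of 26 detected immediate-early genes outside the family, 7 were called lower, of 16 that could have been, and 0 higher. Zfp36, counted above among the factors that act back on the pathway, is among these 7. The median log2 ratio was -0.53, and the lowest ratios were those of Egr1 at -2.11, Ier2 at -1.32 and Ccn1, a matrix protein, at -1.26. With a pseudocount of 0.1 CP10k, 12 were 2-fold lower and 1 higher. On that scale their median was -0.98, and that of the 8 genes of the family was -0.90. Of 12 heat shock genes, which warm tissue digestion is known to induce with Fos and Jun, 2 were called lower and 0 higher. Of these 12, 9 could have been called lower, and the median was -0.36. With a pseudocount of 0.1 CP10k, 3 were 2-fold lower and 1 higher, with a median of -0.60. Dnajb1 had 7.14 CP10k in CM and 1.08 in TSF, and Hspa1b had 4.02 and 0.932. Hsp90aa1 (14.8 and 18.4 CP10k) and Hspb1 (0.0190 and 0.879 CP10k) had ratios above 0. The summed level of the 12 genes was 96.5 CP10k in CM and 62.7 in TSF. Hspa8 had the highest level of the 12 in both libraries, 52.3 CP10k in CM and 27.95 in TSF, and so weighed most in this sum. Its log2 ratio was -0.88, so it was not called lower. The lower levels of Jun, Junb, Fosl1 and Atf3 in TSF thus came with lower levels of some heat shock genes, and the part of the digestion in them was not tested. Of 13 genes of the integrated stress response and of p53, settings in which Atf3 is induced, 0 were called and 11 had a ratio below 0, with a median of -0.34. Only Atf4 among them was high enough to be called lower. The summed level of the 13 genes was 7.93 CP10k in CM and 3.50 in TSF, 2.27-fold lower in TSF, and with a pseudocount of 0.1 CP10k, 6 were 2-fold lower and 0 higher. Ddit3 (CHOP) had 0.837 and 0.233 CP10k, and Ppp1r15a had 0.867 and 0.306 CP10k.

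**Figure D5:**
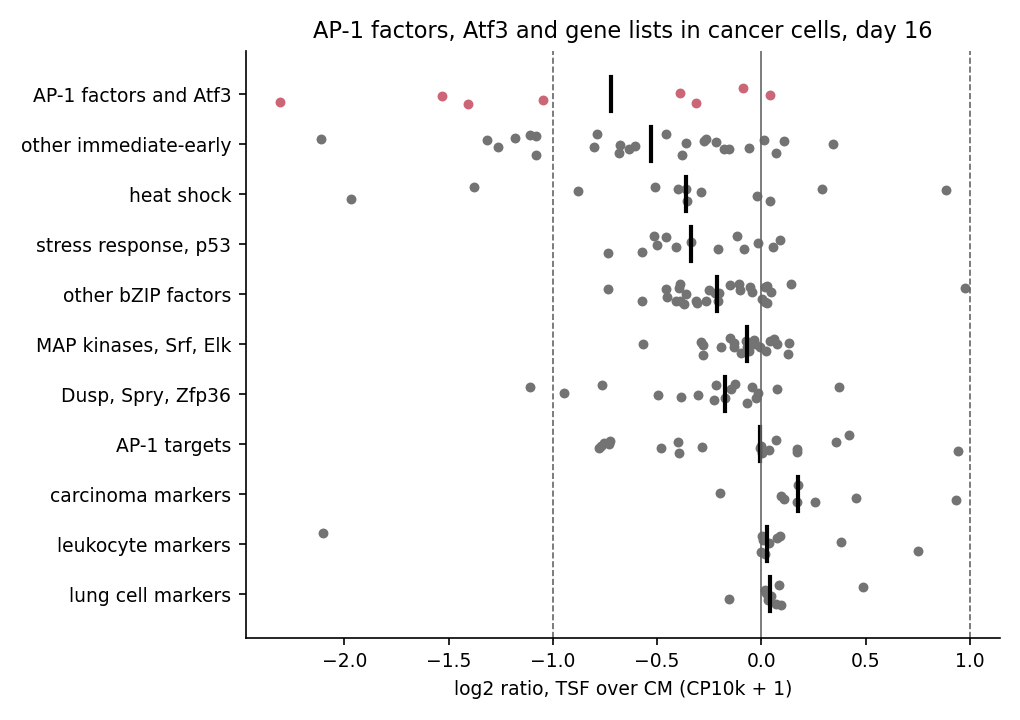
Log2 ratio of TSF over CM (CP10k + 1) for the 8 genes (red) and for the detected genes of 10 lists (grey), with the median of each list as a black bar and dashed lines at 2-fold; vertical spread within a row only separates points. The medians lie at -0.72 for AP-1 factors and Atf3, -0.53 for other immediate-early genes, -0.36 for heat shock genes and -0.0091 for AP-1 targets. With a pseudocount of 0.1 CP10k these medians were -0.90, -0.98, -0.60 and -0.049. For the 9 targets with a mean of at least 1 CP10k, the median on the scale shown was -0.72. Some genes stand in more than 1 list.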

How the data were processed

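Libraries were 10x Genomics 5′ libraries. The authors aligned them with Cell Ranger to a mouse genome that also held the CD90.1 reporter (mm10, GRCm38.p6, per the submitters' processing notes), subtracted ambient RNA with SoupX, with a fraction raised above the automatic estimate, and used Seurat 4.1.0 among other tools. No deposited cell has fewer than 800 UMIs or 202 genes, and none exceeds 9.989% mitochondrial UMIs. Cancer cells were named by the authors as a cluster, by CD90.1, and no doublets were removed from them. The deposited gene table gives, for the cancer cells of each library, the mean CP10k, how many cells had a UMI, and that number as a percent. Each mean CP10k column sums to 10000, and every value of a gene seen in 1 cell was a whole number of UMIs of a cell. The deposited cell table gives UMI counts per cell after ambient correction. Its 2 libraries outside the samples described were not used. Columns with the authors' own fold changes, p-values and enrichment scores were not used.

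The members and lists were chosen with earlier results of these data known. All 8 members were named, and of each list at most 3 genes with the largest absolute log2 ratio among genes in at least 10% of cells, beside markers that bear on the cell label and list members given as examples. Marker lists for leukocytes, other lung cells and carcinoma cells are described with the cells. The lists share genes, and Zfp36, Dusp1, Maff, Atf4, Atf5 and Ddit3 each stand in more than 1 of them. Ratios were taken from the mean CP10k plus a pseudocount of 1. Shares have exact Clopper-Pearson intervals at the 95% level, which cover counting error only. With 1 library per group no test was made and no spread between mice is known, and without a cell matrix no error of a mean, no UMI sum and no background share in other cell types was computed. The calculations were tested on simulated data. Promoters came from RefSeq (7 of 8 genes matched), and gene models from GENCODE M21, both on GRCm38; for the untranslated regions 86.4% of detected genes had a model. Alternatives were another pseudocount, scaling or gene pool, and the share or level in place of the mean. Values were computed with scipy 1.17.1, pandas 2.3.3 and numpy 2.4.6 in Python 3.11.15, and drawn with matplotlib 3.10.9.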

Additional observations from a re-analysis of the deposited data

How the results depend on the processing

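By shares of cells with a UMI, the count of genes at least 2-fold lower went from 4 to 0, and the log2 ratio turned to 0.039 for Jun and 0.050 for Junb. A share cannot exceed 100%, and nearly all cells held these genes. The median ratio of genes in at least 10% of cells was shifted by -0.20 (log2) from CM to TSF. Relative to it, Jund turned to 0.074, Junb (-0.87) was no longer called, and the log2 ratios of Atf3, Fosl1 and Jun were -2.16, -1.39 and -1.23. Of 56 ratios over 8 genes and 7 alternatives, 49 kept their direction and their side of 2-fold. The pseudocount set how many of all genes were called, with 506 lower and 175 higher at 0.1 CP10k and 55 and 13 at 1 CP10k. Scaling to the median ratio gave 45 lower and 22 higher (67.2% lower, against 80.9%), and leaving out ribosomal protein genes 57 and 21. The pool of genes with a mean of at least 1 CP10k was chosen after seeing the data. No paired analysis was possible because each group of day 16 is 1 library, and for the same reason no library could be left out.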

Other observations

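In the deposited gene set collection, 19 of 3065 sets held at least 4 of the 8 genes. The set of the AP-1 pathway held all 8. Of its 55 other detected genes 3 were at least 2-fold lower in TSF (5.45%) and 0 higher, with a median log2 ratio of -0.06. The 3 genes, named after their values were seen, were Ccn1, Egr1 and H2-D1, the last an MHC class I gene. The Hallmark set of TNF signaling through NF-kB held 7 of the 8, all but Jund. Of its 182 other detected genes, 10 were at least 2-fold lower (5.49%) and 1, the neutrophil attractant Cxcl2, at least 2-fold higher. The median of these genes was -0.10. Over all detected genes, most of them too low to pass, 0.373% were lower and the median was 0.0011. Among genes with a mean of at least 1 CP10k, 3.47% were lower and the median was -0.05. How many genes of each set were high enough to be called lower was not counted. The 10 genes included immediate-early genes (Egr1, Ier2, Ier5, Klf6, Nr4a1, Zfp36 and Ccn1) and the interferon genes Irf1, Tap1 and Cxcl10. The Hallmark hypoxia set, with Fos, Fosl2, Jun and Atf3, had 3 lower and 2 higher of 173 other genes and a median of 0.02.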
